A study of Mus musculus with 12 samples.

Results

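Ldb1 and Pprc1 are neighbouring genes on mouse chromosome 19 whose insertions were counted here together with those of their relatives Ldb2, Ppargc1a and Ppargc1b, which are 5 of the 20409 genes in the deposited tables. Ldb1 and Pprc1 were selected on their activator insertion counts, both having been called in that screen with insertions counted on the sense strand and again with every strand reversed, so all their activator values below are a description and carry no test. The other 3 genes were taken by name as the relatives of the pair. LDB1 is a nuclear co-factor without a DNA-binding domain of its own that binds LIM domains and dimerises, so that it joins LIM-homeodomain factors, LIM-only proteins and GATA factors into larger complexes. LDB2 is its close paralog. PPRC1 belongs with PPARGC1A and PPARGC1B to the PGC-1 family of transcriptional co-activators, which dock on nuclear receptors and nuclear respiratory factors, recruit acetyltransferases and Mediator, and are known for raising the expression of genes for mitochondria.

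The data come from ORFtag screens in mouse embryonic stem (mES) cells, diploid cells derived from a haploid line. A retroviral cassette with a PGK promoter, a selection gene, a tag and a splice donor lands at many places in the genome, and where it lies upstream of an exon on its own strand the tag can be spliced onto the protein encoded there. The tag was TetR in the screens for activators and repressors, where it binds TetO sites beside a GFP reporter with an inactive or an active promoter. It was λN in the PTGR screen, named for post-transcriptional gene regulation, where it binds boxB sites in the GFP transcript. Sorted cells had gained GFP in the activator screen and lost it in the repressor and PTGR screens, and each screen had 2 sorted and 2 unsorted libraries (12 in all, 6 of them unsorted), from wild-type cells of 1 clonal reporter line per screen, transduced so that few cells were hit and grown in G418. Both TetO reporters sat at a locus of stable expression and the boxB reporter at a random place. The PTGR reporter line also carried an inducible Cre recombinase. Its sorted cells were treated with hydroxytamoxifen, so that Cre removed the boxB sites, and were sorted again for restored GFP.

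An insertion is a unique genomic position at most 200 kb upstream of the exon it was assigned to. In the sense assignment this was the first exon with a splice acceptor met downstream on the strand of the cassette. In the reversed assignment the strand was turned round before the same search. Sorted libraries held 14705 to 60980 sense insertions and unsorted libraries 54088 to 233799. The activator unsorted 2 library stood apart, with 1.49% of its insertions in the 130 activator hits other than Ldb1 and Pprc1, against 1.04% to 1.100% in the other 5 unsorted libraries. It shared 3461 positions with activator sorted 2, or 19.5% of that library's 17750, while activator sorted 1 shared 1133 of 22857 (4.96%) with activator unsorted 1. Leaving activator unsorted 2 out raised the activator values of Ldb1 and Pprc1, as given beside them.

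The pair lies head to head. Ldb1 (ENSMUSG00000025223) runs on the minus strand at chr19:46031570-46045214 and Pprc1 (ENSMUSG00000055491) on the plus strand at chr19:46044886-46072915 of GRCm38, and the 2 gene records overlap by 0.329 kb. The overlap comes from a non-coding Pprc1 transcript, and the first coding Pprc1 transcript starts at 46056539, 11.3 kb from the Ldb1 start. Exon 2 of Ldb1 (46036263 to 46036365, 103 bp) and exon 2 of Pprc1 (46061403 to 46061576, 174 bp) are 25.04 kb apart, and the starts of both genes lie between them. The splice acceptors of these 2 exons are shown because nearly every insertion of the pair was assigned to them, with those of exon 2 of Ldb2 and Ppargc1a for comparison. Each line gives the last 20 bases of intron 1 and the first 10 bases of exon 2, read 5′ to 3′ on the strand of the gene from GRCm38, and the capitals mark the AG at the end of the intron.

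Ldb1, chr19:46036356-46036385, minus strand: tgtgccattctctctgctAGgttgttcctc

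Pprc1, chr19:46061383-46061412, plus strand: ttctccctcttttgccttAGgtccatgagg

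Ldb2, chr5:44669450-44669479, minus strand: aatgccctgtctctttgcAGgacagtgaca

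Ppargc1a, chr5:51548682-51548711, minus strand: cgtgtctgtcttctttgcAGtgtgctgctc

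All 4 introns end in AG. Of the 18 bases before it, 14 were pyrimidines (C or T) at Ldb1, 17 at Pprc1, 13 at Ldb2 and 14 at Ppargc1a. The Ldb1 acceptor is used in 6 of the 8 annotated transcripts with a second exon. The start codon lies in exon 1 in 2 of the 6 and in exon 2 in the other 4, so that 20 bases of exon 2 are coding in those 4. At Pprc1 the acceptor is used in 9 of 11 such transcripts, with the start codon in exon 1 in 3 and in exon 2 in 4, where 96 bases of the exon are coding.

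Both genes of the pair were far more frequent among cells that had gained GFP than among unsorted cells. Ldb1 had 167 sense insertions in activator sorted 1 and 239 in activator sorted 2, which is 96.0 and 163 per 10000 insertions of the library. In the 6 unsorted libraries it had 12 to 70, or 1.20 to 3.37 per 10000 with a median of 1.31. The mean was 129 ± 47.0 (SD, n = 2) per 10000 in the activator sorted libraries and 1.78 ± 0.868 (SD, n = 6) in the unsorted ones, and the 2 groups did not overlap. Pprc1 had 161 and 284 sorted insertions, or 92.5 and 193 per 10000, against 9 to 68 in the unsorted libraries, or 1.41 to 3.28 per 10000 with a median of 1.77. Its mean was 143 ± 71.1 (SD, n = 2) per 10000 against 1.97 ± 0.663 (SD, n = 6). Replicate 2 was higher than replicate 1 for both genes, and both replicates were above every other library. The other 130 activator hits together also held more of replicate 2 (44.5%) than of replicate 1 (20.7%), so this difference was not particular to the pair.

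Summed over replicates, Ldb1 had 406 activator insertions against 179 in the background of 6 unsorted libraries, a log2 odds ratio of 6.19 ± 0.13 (SE from counting error). Pprc1 had 445 against 208, a log2 odds ratio of 6.11 ± 0.12 (SE). Without activator unsorted 2 the log2 odds ratios were 6.58 and 6.35. A gene was called where its log2 odds ratio was 1 or more and its adjusted p under 0.001, by one-sided Fisher's exact tests adjusted by Benjamini-Hochberg over all genes with at least 3 sorted insertions. This called 132 of 2842 genes in the activator screen (4.64%), among them Ldb1 and Pprc1, as their choice required. By the number of sorted insertions Pprc1 had rank 4 and Ldb1 rank 5 among the 132. At the threshold, the last gene inside was Pygo2 with 3 sorted and 0 background insertions, and the first outside was Tlk2 with 13 and 101.

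With the strand reversed the counts changed places. Ldb1 had 160 and 284 reversed insertions in the activator sorted libraries and Pprc1 had 167 and 239, so that the reversed count of each gene was, but for 1 insertion, the sense count of the other in both replicates. The log2 odds ratios of the reversed insertions were 6.15 ± 0.12 (SE) for Ldb1, from 444 against 215, and 6.00 ± 0.12 (SE) for Pprc1, from 406 against 219. Without activator unsorted 2 they were 6.44 and 6.32. In the reversed assignment 85 of 2706 genes were called (3.14%), again with both genes of the pair by choice. The last gene inside the threshold was Mmp9 with 8 and 25 insertions, and the first outside was Evx1 with 8 and 38.

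**Figure D1:**
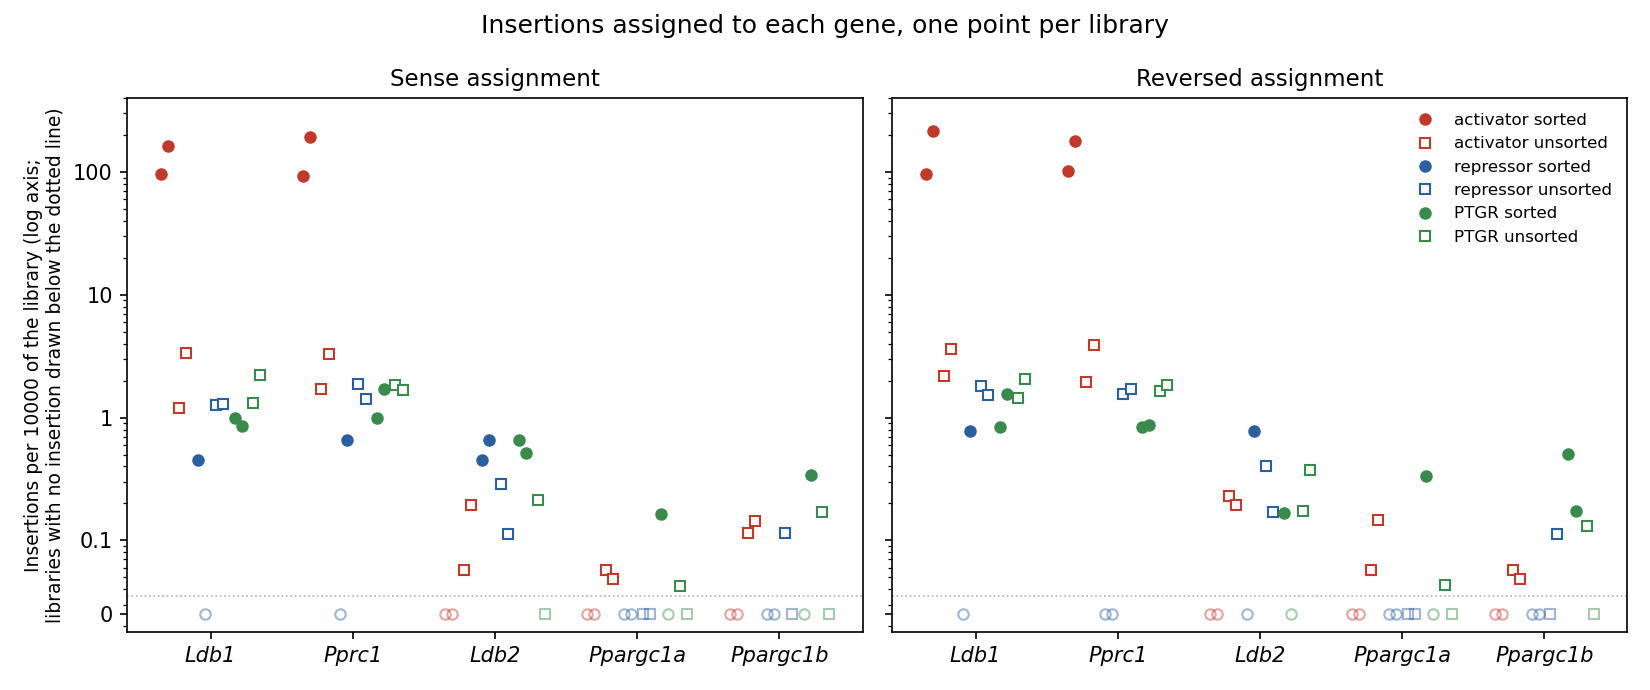
Insertions per 10000 insertions of the library (log axis) for the 5 genes in each of the 12 libraries, in the sense (left) and reversed (right) assignment, with filled circles for sorted libraries, open squares for unsorted ones and counts of 0 drawn below the dotted line. In the sense assignment Ldb1 and Pprc1 stand at 92.5 to 193 in the 2 activator sorted libraries and at or below 3.37 in all others, while Ldb2, Ppargc1a and Ppargc1b have no activator sorted insertion.

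The same positions served both genes. All 406 activator positions assigned to Ldb1 in the sense assignment were assigned to Pprc1 in the reversed assignment, which is all of the 406 reversed Pprc1 positions. Of the 445 sense positions of Pprc1, 444 were the 444 reversed positions of Ldb1, and the remaining one went to Armh3. Together 850 of 851 positions (99.9%) changed from one gene of the pair to the other. Such a change follows from the map wherever an insertion lies between the second exons of both genes, since each exon is then the nearest one downstream on its strand.

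In the unsorted libraries the exchange was less complete. Of 179 sense positions of Ldb1, 149 (83.2%) were reversed positions of Pprc1, which made up 68.0% of its 219. Of the rest, 26 went to Nolc1 and 4 to Elovl3. Of 208 sense positions of Pprc1, 159 (76.4%) were reversed positions of Ldb1, or 74.0% of its 215, and the other 49 went to Armh3. Together 308 of 387 unsorted positions (79.6%) changed from one gene of the pair to the other. The same change was seen for 17 of 27 positions (63.0%) in the PTGR sorted libraries and for 1 of 2 in the repressor sorted libraries.

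Few other activator hits had reversed insertions in such numbers. The ratio of reversed to sense sorted insertions was 1.09 at Ldb1 and 0.912 at Pprc1, and its median over the 132 hits was 0.0104. Taf4b had a higher ratio, 1.76 from 37 reversed and 21 sense insertions, and the next after the pair was Shc1 at 0.333. Taf4b, Ldb1 and Pprc1 were the 3 hits whose sense positions mostly passed to another hit when the strand was reversed. Since the choice of the pair used these counts, no test of the ratio was made.

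**Figure D2:**
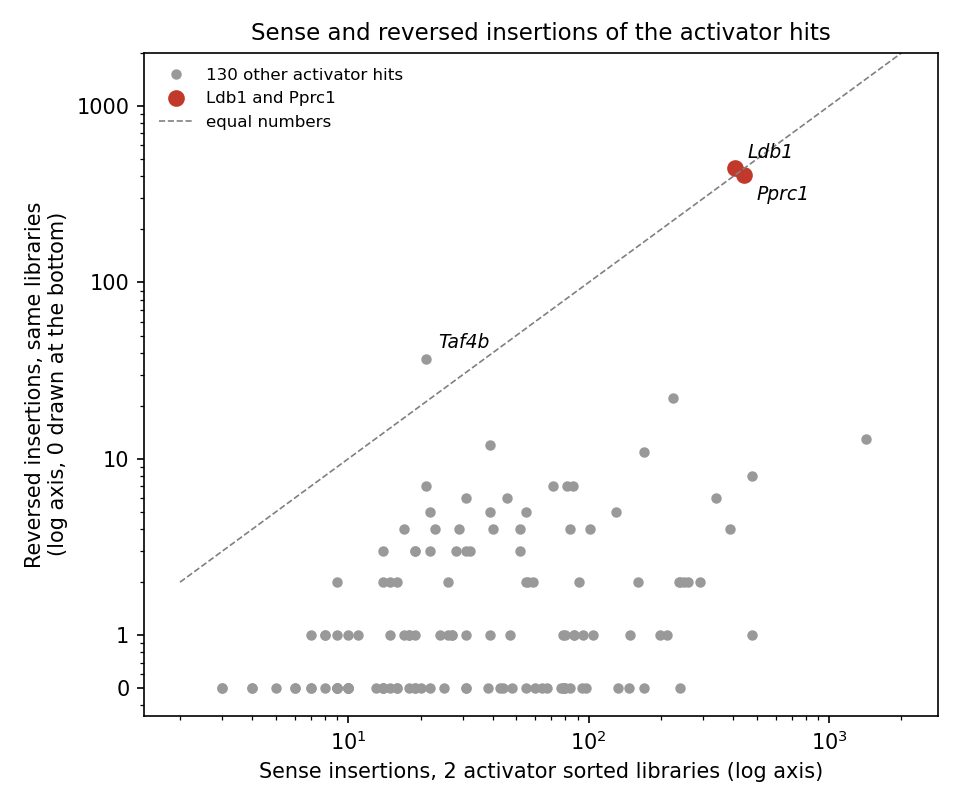
Reversed against sense insertions in the 2 activator sorted libraries together, 1 point for each of the 132 activator hits, on log axes with reversed counts of 0 drawn at the bottom and a dashed line at equal numbers. Ldb1 (406 sense, 444 reversed) and Pprc1 (445 sense, 406 reversed) lie close to the diagonal in the upper right, where no other hit lies.

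Where the insertions lay between the 2 exons did not enter the choice of the genes, but the positions are the same, so these values are described without a test. In the 8.85 kb of Ldb1 exon 1 and intron 1, the activator sorted libraries had 177 insertions on the plus and 186 on the minus strand. In the 11.3 kb between the Ldb1 start and the first coding Pprc1 start they had 195 and 217. From that start to Pprc1 exon 2, a stretch of 4.86 kb, they had 71 on the plus strand, along Pprc1, and 0 on the minus strand. The minus strand is that of Ldb1, so an insertion there would have been assigned to Ldb1 from inside the coding transcripts of Pprc1.

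The stretch past the Pprc1 start was the one in which the strands parted. The plus and minus counts there were 18 and 0 in replicate 1 and 53 and 0 in replicate 2. The share on the minus strand was 0 of 71, against 14 of 44 (31.8%) in the unsorted libraries. Activator unsorted 2, which shared many positions with activator sorted 2, held 18 plus and 2 minus of the 44. The plus and minus counts were 2 and 2 in activator unsorted 1, and 5 and 6 and 4 and 3 in repressor unsorted 1 and 2. They were 1 and 1 and 0 and 0 in PTGR unsorted 1 and 2. Up to the Pprc1 start, 403 of 775 sorted insertions were on the minus strand (52.0%), close to the 126 of 244 (51.6%) of the unsorted libraries. In the sorted libraries the minus-strand insertion farthest from Ldb1 exon 2 lay at 19.9 kb in replicate 1 and 20.0 kb in replicate 2. Between the exons, plus-strand insertions reached 24.9 and 24.6 kb, close to Pprc1 exon 2.

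Beyond the exons the activator sorted insertions nearly ended. The sorted libraries had 3 minus-strand insertions in Ldb1 from exon 2 on and 1 plus-strand insertion in Pprc1 from exon 2 on. The unsorted libraries had 2 and 13 there, plus 7 on the minus strand in Pprc1. The median distance to the assigned exon was 9.40 kb for sense insertions of Ldb1 (0.027 to 20.0 kb) and 14.4 kb for those of Pprc1, against 11.3 and 14.9 kb in the unsorted libraries. The assigned exon was exon 2 for 403 of 406 (99.3%) at Ldb1 and 444 of 445 (99.8%) at Pprc1. The farthest activator insertion of Pprc1 was at 38.1 kb, while unsorted ones reached 96.0 kb for Ldb1 and 199 kb for Pprc1.

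**Figure D3:**
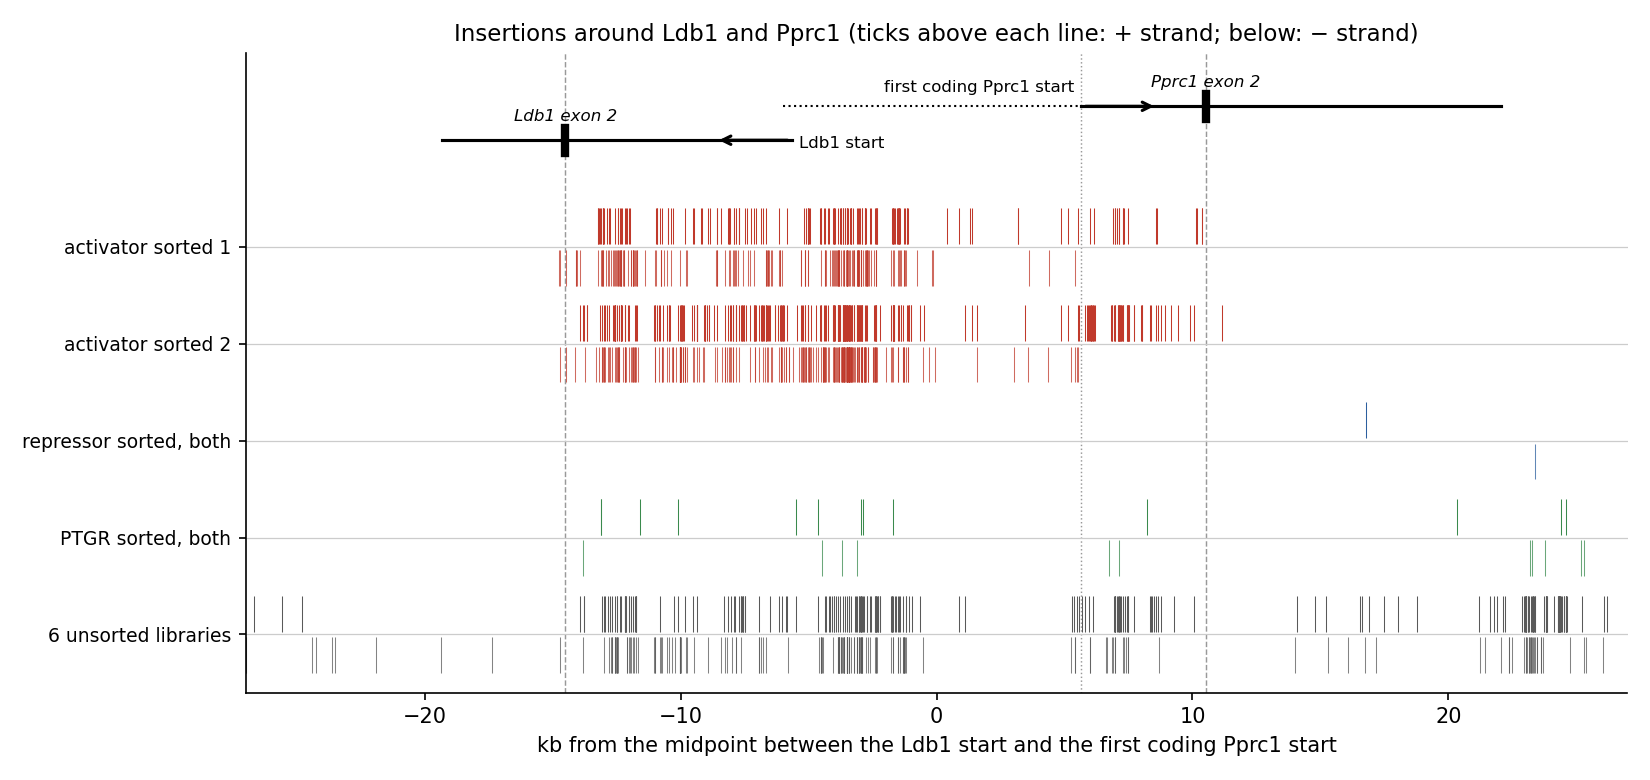
Map of the region around Ldb1 and Pprc1, with distance in kb from the midpoint between the Ldb1 start and the first coding Pprc1 start and 1 tick per insertion (plus strand above each line, minus strand below), for each activator sorted library, the repressor and PTGR sorted libraries and the 6 unsorted libraries. Dashed lines mark the acceptors of exon 2 and the dotted line the first coding Pprc1 start. In the 25.04 kb between the second exons, activator sorted insertions lie on both strands before the first coding Pprc1 start, thinly in the last kilobases before it, and only on the plus strand after it.

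The insertions were spread over the interval with several dense places on both strands. The kilobase from 11 to 12 kb from Ldb1 exon 2 held 133 sorted insertions, 20 plus and 34 minus in replicate 1 and 33 plus and 46 minus in replicate 2, against 48 in the 6 unsorted libraries. The next, from 10 to 11 kb, held 111 against 30, and that from 2 to 3 kb held 68 against 30. The unsorted libraries were therefore also dense in the kilobase with the most sorted insertions. From 14 to 20 kb, no kilobase held more than 3 insertions on a strand in either activator sorted library.

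**Figure D4:**
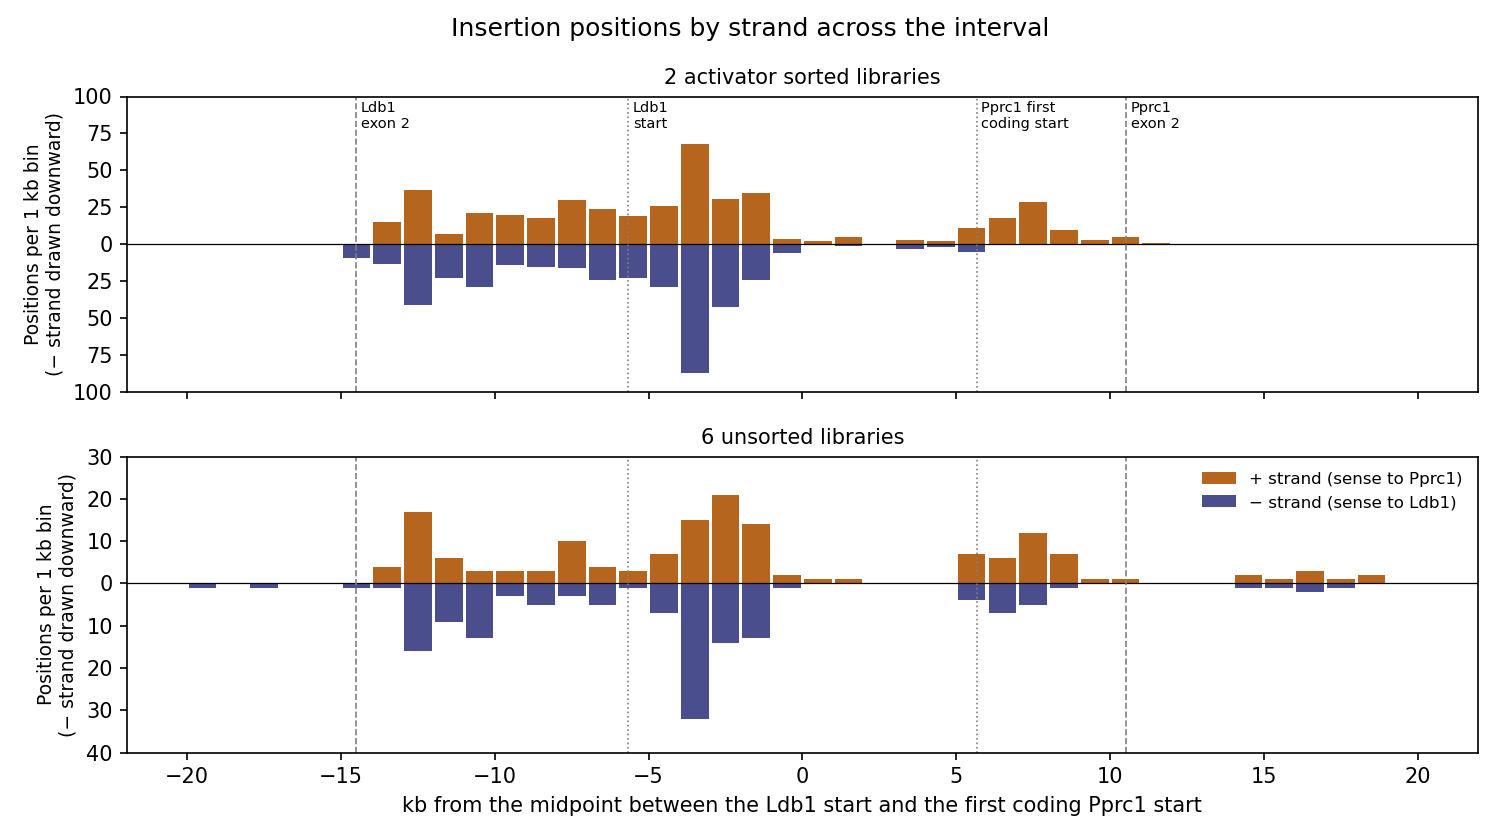
Insertion positions per 1-kb bin against distance in kb from the midpoint between the Ldb1 start and the first coding Pprc1 start, plus strand drawn upward and minus strand downward, for the 2 activator sorted libraries together (top) and the 6 unsorted libraries together (bottom). The tallest activator bars of both strands lie between the Ldb1 start and the midpoint, and only plus-strand bars remain past the bin that holds the Pprc1 start.

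Between the second exons, activator sorted 1 had 325 positions and sorted 2 had 521. They had 48 in common, 14.8% of the first and 9.21% of the second. Of the 798 distinct positions, 678 (85.0%) were found in no other library, 97 (12.2%) also in an activator unsorted library and 29 (3.63%) in a library of another screen. Activator sorted 2 shared 79 of its 521 positions (15.2%) with activator unsorted 2, or 64.8% of the 122 that library had there.

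Many of the sorted insertions of the pair had a neighbour on the opposite strand within 10 bp. Between the second exons this held for 91 of 325 positions (28.0%) in activator sorted 1 and 241 of 521 (46.3%) in sorted 2. By gene it held for 168 of the 406 sense positions of Ldb1 (41.4%) and 164 of the 445 of Pprc1 (36.9%). The pair was chosen for many positions on both strands of 1 interval, and no share to be expected from their density was computed. The shares were therefore not set against other genes or the rest of the library. The most frequent offset was 5 bp, with the minus-strand position below the plus-strand one in coordinates (-5), in 12 of 66 pairs in replicate 1 and 39 of 205 in replicate 2.

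The counts stayed high without these positions, an alternative chosen after seeing the data. Leaving out every position with an opposite-strand neighbour within 10 bp, in all libraries, left 115 plus and 119 minus insertions between the exons in sorted 1 and 164 and 116 in sorted 2. The log2 odds ratios were then 5.48 for Ldb1, from 238 against 165, and 5.47 for Pprc1, from 281 against 196. In the reversed assignment they were 5.51 and 5.26. The exchange between the genes was 518 of 519 (99.8%), and past the Pprc1 start there were still 71 plus and 0 minus insertions. The source of the close pairs was not tested.

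Promoter windows were read for their base composition and motifs. RefSeq gave windows for 3 of the 5 genes in the table used here, 5 windows in all, 3 of them at Ldb1. The 250 bases before the outermost Ldb1 start (chr19:46045312-46045561, GRCm38.p6) are 76% G or C, with 1 GC box (GGGCGG on either strand) and 1 CCAAT box. Those of the other Ldb1 starts are 68.4% G or C with 4 GC boxes (chr19:46039622-46039871) and 53.2% with none of the motifs (chr19:46037071-46037320). Those before the first coding Pprc1 start (chr19:46056289-46056538) are 45.2% G or C and held neither motif nor a TATAAA. The median over 32851 windows was 52.4%, and GGGCGG was found in 32.7%, CCAAT in 33.8% and TATAAA in 12.4% of them. In the order given, the Ldb1 windows held 1 plus and 1 minus, 3 and 3, and 3 and 1 activator sorted insertions. The Pprc1 window held 3 plus and 2 minus. In the same order, the 6 unsorted libraries together had 1 and 0, 0 and 3, and 2 and 0 at Ldb1, and 2 and 0 at Pprc1.

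The relatives showed nothing of the kind in the activator screen. Ldb2, Ppargc1a and Ppargc1b had 0 insertions in both activator sorted libraries and in both assignments. A count of 0 allows up to 0.935 per 10000 over the 32102 sense insertions of these libraries. At the background share, 0.534 insertions of Ldb2, 0.0942 of Ppargc1a and 0.345 of Ppargc1b were to be counted, so a lower level was not detectable at this depth. These 3 genes had fewer than 3 sorted insertions and were not tested. The background had 17 insertions of Ldb2, 3 of Ppargc1a and 11 of Ppargc1b, while that of Ldb1 and Pprc1 was above 92.6% and 94.1% of all genes in the tables, whose median was 15. Insertions at Ppargc1a were thus rare in every library.

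The repressor screen shows whether insertions of these genes were also found in cells that had lost GFP under TetR recruitment. Ldb1 had 1 and 0 sense insertions in the repressor sorted libraries (0.449 and 0 per 10000). Pprc1 had 0 and 1 (0 and 0.658 per 10000). Both genes were below all 6 unsorted libraries. At the background share only 6.56 and 7.63 insertions were expected over both sorted libraries, and the share of all genes with such a gap was not computed. No repressor sorted insertion lay between the second exons. Ldb2 had 1 insertion in each library, both assigned to exon 6 at the same distance of 19.2 kb, and the PGC-1 relatives had 0. None of the 5 genes reached the 3 insertions needed for the test, which called 192 of 2346 genes in the sense (8.18%) and 125 of 2229 in the reversed assignment (5.61%).

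A test for fewer sorted insertions, added after seeing the data and run over genes with at least 50 background insertions, did not call either gene of the pair. Its background included activator unsorted 2, the highest of the unsorted libraries for both genes, which raised the expected counts. For Ldb1, 1 sense insertion was found where 6.56 were expected at the background share (log2 odds ratio -2.71 ± 1.45 SE, adjusted p = 0.0846, one-sided Fisher's exact test, Benjamini-Hochberg, unadjusted p = 0.0116). For Pprc1, 1 was found where 7.63 were expected (log2 odds ratio -2.93 ± 1.45 SE, adjusted p = 0.0521 in the same exact test, unadjusted p = 0.00467). The reversed counts were 1 for Ldb1 (adjusted p = 0.1497, same exact test) and 0 for Pprc1 where 6.71 were expected (adjusted p = 0.0625, same exact test). At the threshold of 0.001 the test called 29 of 5254 genes in the sense (0.552%) and 0 of 5180 in the reversed assignment (0%). With the spread between replicates taken into account by the quasi-likelihood test of edgeR, on 2 sorted and 2 unsorted libraries of the screen, the log2 fold changes were -2.19 for Ldb1 (adjusted p = 0.420) and -2.56 for Pprc1 (adjusted p = 0.321). Ldb2 had a log2 fold change of 1.38 (adjusted p = 0.630, edgeR).

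In the PTGR screen, whose sorted libraries were deeper, both genes of the pair were present at or below their background level. Ldb1 had 6 and 5 sense insertions (0.984 and 0.854 per 10000), below the 1.20 of the lowest unsorted library. The share of all genes with such a gap was not computed. Pprc1 had 6 and 10 (0.984 and 1.71 per 10000), which overlapped with the unsorted libraries. The log2 odds ratios were -0.93 ± 0.45 (SE) for Ldb1 and -0.60 ± 0.37 (SE) for Pprc1, each with an adjusted p of 1 in the test for more sorted insertions, which called 62 of 9303 genes (0.666%). In the test for fewer, the adjusted p was 0.286 for Ldb1 and 0.458 for Pprc1 (Fisher's exact test, Benjamini-Hochberg), where 11 of 5254 genes were called (0.209%). The edgeR log2 fold changes were -0.88 and -0.50, both with an adjusted p of 0.993.

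Reversed insertions of the pair were also low in the PTGR sorted libraries. Ldb1 had 14 where 24.99 were expected at the background share, and Pprc1 had 10 where 25.5 were expected, with log2 odds ratios of -0.84 ± 0.40 (SE) and -1.35 ± 0.47 (SE). That background included activator unsorted 2, the highest of the unsorted libraries for both genes (3.64 and 3.88 per 10000), which raised the expected counts. Against the unsorted libraries of the PTGR screen alone, the edgeR log2 fold changes were -0.53 and -1.09 (adjusted p = 0.994 for both). Neither was called for fewer insertions (adjusted p = 0.303 and 0.0763, Fisher's exact test, Benjamini-Hochberg), where 9 of 5180 genes were (0.174%). For more insertions, 46 of 9204 genes were called in the reversed assignment (0.5%), and none of the 5 genes was among them.

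Among the relatives, Ldb2 had the most PTGR insertions in the sense assignment. It had 4 and 3 in the sorted libraries (0.656 and 0.512 per 10000) against 0 to 5 in the unsorted ones (0 to 0.287 per 10000). The groups did not overlap when every position was counted, but the share of all genes without overlap was not computed. Its log2 odds ratio was 1.82 ± 0.65 (SE), with an unadjusted p of 0.00955 and an adjusted p of 0.233 (one-sided Fisher's exact test, Benjamini-Hochberg), so it was not called. In edgeR the log2 fold change was 1.63 (adjusted p = 0.993). The 3 insertions of replicate 2 lay within 8 bp of each other, at 5.15 to 5.16 kb from exon 3. With positions within 10 bp merged, replicate 2 had 1 insertion (0.183 per 10000), which overlapped with the unsorted libraries (0 to 0.302), and the log2 odds ratio was 1.34 ± 0.73 (SE, adjusted p = 0.561, same exact test). Those of replicate 1 lay at 41.0, 75.9, 78.6 and 124 kb from exons 2 and 3.

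Ppargc1a had 1 sense insertion in PTGR sorted 1 and 0 in sorted 2, and Ppargc1b had 0 and 2. Too few for the test, these were assigned to exon 2, at 31.5 kb for Ppargc1a and at 7.11 and 17.8 kb for Ppargc1b. Reversed, Ppargc1b had 4 insertions against 7 in the background, a log2 odds ratio of 2.298 ± 0.904 (SE) that was not called (adjusted p = 0.319, Fisher's exact test, Benjamini-Hochberg). Ppargc1a had 2 reversed insertions against 5.

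Whether the 2 screens for lost GFP differed at these genes was tested by an interaction term in edgeR over all 12 libraries. The sorted over unsorted change in the repressor screen minus that in the PTGR screen was -1.49 on the log2 scale for Ldb1 (adjusted p = 0.825), -2.18 for Pprc1 (adjusted p = 0.699) and -0.35 for Ldb2 (adjusted p = 1.000, edgeR) over 16642 genes. No difference between the screens was thus called for any of the 5 genes in either assignment.

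The genes on either side of the pair had almost no activator insertions. Within 200 kb of the midpoint between the starts of the pair, the tables hold 5 other genes, Armh3, Nolc1, Elovl3, Pitx3 and Gbf1. They had 0 sense insertions in the activator sorted libraries, against 84 in the background at Armh3 and 53 at Nolc1, which encodes a nucleolar chaperone. The background was 3 at Elovl3, 13 at Pitx3 and 11 at Gbf1. For Ldb1, with 179 in the background, 5.62 activator insertions were expected at the background share. Few were therefore to be counted at these 5 genes, and a lower level at a single gene was hardly detectable. In the reversed assignment Pitx3, which encodes a homeobox factor, had 4 against 15 (log2 odds ratio 3.18 ± 0.81 SE, adjusted p = 0.0456, Fisher's exact test, Benjamini-Hochberg) and Armh3 had 1. None of the 5 was called in any screen or assignment.

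Other genes that act with the LDB and PGC-1 proteins were counted from 8 lists of 59 genes, listed with earlier results of these data known. In the activator screen 23 had the 3 sorted insertions needed for the test, and 9 were called (39.1%, against 4.64% of all genes tested). Since only genes with sorted insertions could be tested and the lists were made with results known, this count is a description. On the LDB1 side 4 of 8 tested genes were called, and on the PGC-1 side 5 of 15. In the repressor screen 2 of 14 were called and in the PTGR screen 1 of 32, and 0 in the reversed assignment of any screen. Without activator sorted 2 the activator count was 5, and without repressor sorted 1 the repressor count was 1.

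The called partners of LDB1 were LIM-homeodomain factors and LIM-only proteins. Among 12 LIM-homeodomain genes 3 had enough sorted insertions to be tested, and 2 were called. Isl2, a factor of motor neurons, had 7 and 4 activator insertions against a background of 40 (log2 odds ratio 3.13 ± 0.49 SE, adjusted p = 8.46e-06, Fisher's exact test, Benjamini-Hochberg). Lhx4 was called from 2 and 1 insertions against 0 in the background. Of 4 LIM-only genes, whose products bridge LDB1 to other factors, Lmo1 had 4 and 5 insertions against 24 (log2 odds ratio 3.58) and Lmo4 had 2 and 2 against 3 (5.41). Lmo2 had 4 against 90 and was not called (log2 odds ratio 0.50). Lhx5 and Lhx8 had 2 activator insertions each against 56 and 53, and Lmx1b had 0 against 43.

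The remaining lists of the LDB1 side had no called gene in any screen. Of 3 single-stranded DNA-binding co-factors, which protect LDB1 from turnover, only Ssbp3 was tested in the activator screen, with 13 insertions against 593 (log2 odds ratio -0.52). Of the 7 genes for blood transcription factors and the LDB ubiquitin ligase, Tcf12 had 9 against 118 (log2 odds ratio 1.28, adjusted p = 0.229, Fisher's exact test). Gata1 had 0 against 110 and Gata2 had 2 against 98.

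On the PGC-1 side the calls lay mostly among co-activators that work with the family. Of 10 genes for co-activator enzymes and regulators, 5 had enough sorted insertions to be tested and 4 were called in the activator screen. Ep300, an acetyltransferase, had 149 and 240 insertions against 290 (log2 odds ratio 5.43 ± 0.11 SE), and it was also the 1 listed gene called in the PTGR screen (177 insertions, 2.39 ± 0.14 SE). Crtc2 and Crtc3, co-activators of CREB, had 18 against 4 (7.16 ± 0.80 SE) and 55 against 21 (6.38 ± 0.37 SE). Ncoa1, a co-activator of nuclear receptors, had 39 against 508 (1.29 ± 0.24 SE). Sirt1, a deacetylase, was tested with 3 against 92 (0.05) and not called, and Med1, a Mediator subunit, had 2 against 139.

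Nuclear respiratory factors and nuclear receptors differed between screens in which of them were called. Of 7 genes for respiratory factors and their co-factors, Gabpb1, a subunit of nuclear respiratory factor GABP, had 11 and 16 activator insertions against 29 (log2 odds ratio 4.89 ± 0.39 SE, adjusted p = 1.56e-24, Fisher's exact test, Benjamini-Hochberg). Nrf1 had 6 against 191 (0.00), Hcfc1 15 against 352 (0.44) and Yy1 3 against 86 (0.15), and these were not called. None of 10 nuclear receptors was called as an activator, while Esrrb, a pluripotency factor, was called in the repressor screen with 81 and 50 insertions against 416 (3.11 ± 0.14 SE), and so was Rxra with 21 and 5 against 253 (1.49 ± 0.30 SE). Hnf4a, Ppard and Ppara had activator log2 odds ratios of -0.07, 0.64 and -0.07. Of 6 genes for the mitochondrial transcription machinery, a known target of the PGC-1 family, none was called in any screen, with 8 activator insertions against 166 at Tfb1m (0.62).

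The genes whose levels followed the pair most closely were other activator hits. Over the 12 libraries, by Pearson's r of log2(insertions per 10000 + 1) among 4771 genes with enough sorted insertions, Ldb1 was most like Ss18 (r = 0.993), Gli1 (0.993) and Tsx (0.993), and Pprc1 most like Foxj2 (0.996), Aff1 (0.995) and Tsx (0.995). The points share libraries and depth, and the 2 activator sorted libraries set these values.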

How the data were processed

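The 12 libraries were mapped by inverse PCR and sequencing. Per the labels and methods, the authors trimmed reads (Trim Galore 0.6.0), aligned them to mm10 with Bowtie2, filtered with SAMtools 1.9 (versions from the submitters' processing notes) and assigned insertions to exons of protein-coding GENCODE transcripts. The deposited lists give positions and distances, without reads per insertion. The authors also deposited counts of insertions per gene for each screen, with log2 odds ratios and adjusted p-values, which were not used. A recount of unique positions equalled the deposited sorted counts of the activator screen for 20407 of 20409 genes, of the repressor screen for 20400 and of the PTGR screen for 16180, where the deposited numbers include repeated lines (20407 with them).

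Here unique positions per library were counted with Python 3.11.15, pandas 2.3.3, numpy 2.4.6 and scipy 1.17.1. Sums of 2 sorted libraries were tested against 6 unsorted ones, shared by all screens, by one-sided Fisher's exact tests. edgeR 4.0.16 (quasi-likelihood, TMM, adjusted p below 0.05) and DESeq2 1.42.0, in R 4.3.3, used 2 against 2 libraries. Tests were checked on simulated data. The methods call replicates biological. Standard errors and the limit given for absent insertions cover counting error of PCR-derived positions only. For a single value, 2 against 2 libraries allow no exact permutation test to pass 0.05. Gene models came from GENCODE on GRCm38, in a release other than the authors'; computed distances landed within 2 bp of exon 2 for all 592 Ldb1 and 656 Pprc1 positions. Promoter windows are RefSeq's. Named genes are the 5 genes, the neighbours within 200 kb, listed partners called in any screen with up to 3 more per list by background count, and the 3 most alike genes per gene of the pair; others were chosen after their values were seen. The genes, lists and tests were chosen with earlier results of these data known. The location of Ppargc1b and protein sequences are not reported here.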

Additional observations from a re-analysis of the deposited data

Results flagged for a closer look

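In the group of 6 unsorted libraries, activator unsorted 2 lay far above the other 5 for Pprc1 sense insertions (3.28 per 10000), Ldb1 reversed insertions (3.64 per 10000) and Pprc1 reversed insertions (3.88 per 10000). Chance alone marks about 1 in 20 such groups. The same library held 1.49% of its insertions in the other 130 activator hits and shared 3461 positions with activator sorted 2. The part of this sharing in the 3 values was not tested.

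The activator sorted libraries lay above the unsorted libraries of their screen for both genes of the pair, while in some combinations of gene, assignment and screen both sorted libraries of another screen lay below theirs. The share of all genes with such a pattern was not computed. These combinations are also not separate, since most sense positions of one gene are reversed positions of the other (308 of 387, 79.6%, in the unsorted libraries). For Ldb1 the latter held in the repressor screen (means of 0.225 sense and 0.390 reversed insertions per 10000 in the sorted libraries) and, for sense insertions, in the PTGR screen (0.919). For Pprc1 it held in the repressor screen (0.329 sense and 0 reversed) and, for reversed insertions, in the PTGR screen (0.850). Sense insertions of Pprc1 and reversed insertions of Ldb1 in the PTGR screen were not among them. Fewer insertions were called for neither gene in either screen, and since the activator values chose the genes, the differences from the activator screen were not tested.

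Outside the limit of 200 kb, Ppargc1a had 5 sense positions in the PTGR sorted libraries and 7 in the 6 unsorted libraries, none of which entered a comparison.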

How the results depend on the processing

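The number of the 5 genes called in each screen and assignment was the same under every alternative run. In the activator screen this followed from the choice of the pair and the 0 sorted insertions of the relatives. In the repressor screen none of the 5 genes reached 3 sorted insertions, so the unchanged number says little there. The log2 odds ratios of the activator screen ranged from 5.48 to 6.58 for Ldb1 and 5.47 to 6.60 for Pprc1 (sense), and from 5.51 to 6.69 and 5.26 to 6.57 (reversed). In the PTGR screen they ranged from -1.04 to -0.54 for Ldb1, -1.05 to -0.25 for Pprc1 and 1.34 to 2.05 for Ldb2 (sense), and from 1.32 to 2.86 for Ppargc1b (reversed). The listed partners called in the activator screen numbered 5 to 9 when 1 library was left out, the 5 without activator sorted 2, where fewer genes reached 3 insertions. With at least 10 sorted insertions required they numbered 6. In the PTGR reversed assignment 1 listed gene was called in place of 0 under 7 alternatives. In the repressor screen 6.56 to 7.63 insertions of each gene of the pair were expected at the background share, which limits a test for fewer.

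Whether replicate numbers pair the libraries is not settled by the labels or by 2 pairs a screen. Equally numbered activator libraries shared more positions (sorted 1 had 1133 with unsorted 1 and 514 with unsorted 2, sorted 2 had 3461 with unsorted 2 and 260 with unsorted 1), a hint from the data only. The deviations of equally numbered sorted and unsorted libraries correlated at 0.0495 in the activator, 0.00596 in the repressor and 0.258 in the PTGR screen (sense, across genes). With the replicate block edgeR called 2 of the 5 genes in each assignment of the activator screen and 0 in the others. These were the same numbers as without it, 4 in total. The called genes were Ldb1 and Pprc1, chosen for their activator counts, so these calls are a description and carry no test. Over all genes, edgeR without the block called 117, 175 and 35 genes higher in the activator, repressor and PTGR screens (sense). With the block it called 98, 164 and 35, without a filter 113, 74 and 34, and DESeq2 called 138, 227 and 28. The fits with a filter tested 13286, 12888 and 13865 genes, and those without it 16827, 16435 and 17091. In the reversed assignment the numbers were 78, 30 and 24 without the block and 72, 100 and 28 with it. They were 72, 56 and 23 without a filter and 92, 152 and 16 by DESeq2. With the filter 13083, 12715 and 13681 genes were tested there.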
